A study of Mus musculus with 94 samples.

Results

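Wt1 and Tcf21 are 2 of the 16069 genes listed for 85 single cells of mouse perivascular adipose tissue (PVAT), and they were examined in 58 stromal cells and in the 27 other cells of the same table. A cell was taken as stromal when its deposited value of Dcn was 1000 or more. Dcn encodes decorin, a small proteoglycan that fibroblasts and other stromal cells secrete into the collagen matrix. Both genes were selected on their own values in these cells, that is on being detected in stromal cells, and the cells were chosen by the Dcn value, so the shares and levels of Wt1 and Tcf21 are a description and carry no test.

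The study sequenced 94 cells sorted from the fat around the aorta of normal 8-week c57/bl mice, of which 9 are not analysed here. The sort took cells that carried CD29 and Sca1 and lacked CD144 (the endothelial cadherin encoded by Cdh5) and the leukocyte antigen CD45, and the study calls these cells PVAT-derived mesenchymal stem cells (PV-ADSCs). All cells form 1 group with no treatment, and each cell is its own library made with the SMARTseq v4 chemistry. No animal is named for any cell, so the cells count as 1 sample: the intervals given with shares are exact (Clopper-Pearson) 95% intervals, cover counting error only, and do not cover the spread between mice.

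WT1 is a zinc finger transcription factor that the mesothelium, the epicardium and the podocytes of the kidney express, and stromal progenitors of visceral fat express it while those of subcutaneous fat largely do not. TCF21 is a basic helix-loop-helix (bHLH) transcription factor of the epicardium and of mesenchymal and visceral fat progenitors. It binds E-box sites in DNA as a dimer with an E protein (encoded by Tcf3, Tcf4 and Tcf12), and the Id proteins hold E proteins in dimers that cannot bind DNA.

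Wt1 was detected in 20 of 58 stromal cells (34.5%, interval 22.5% to 48.1%) and in 0 of 27 other cells. A count of 0 in 27 allows a share of up to 11.1% when the limit is set at 3 cells, and of up to 12.8% by the exact interval. Tcf21 was detected in 7 of 58 stromal cells (12.1%, interval 4.99% to 23.3%) and in 0 of 27 other cells, with the same limits. Of all genes tested for this split, 29% were likewise above 0 in stromal cells and at 0 in every other cell, and 25.4% had a share at least 20 percentage points higher in stromal cells against 1.11% with a share at least 20 points higher in other cells. The lack of detection in the other cells was thus shared with many genes of this set, and it went with a lower number of detected genes. The other cells held a median of 1416 genes (285 to 2278) and the stromal cells a median of 2813 (850 to 4148). Total reads were closer, with medians of 2714449 in other cells and 2963854 in stromal cells, and the part of gene number in the difference was not tested. When every cell was thinned at random to 1149550 reads, the total of the shallowest cell, Wt1 was again found in 20 and Tcf21 in 7 stromal cells, which bears only on cells with reads, since a cell at 0 cannot gain any.

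The level of a gene is given below as recovered reads, the whole number of reads that remains when the scaling factor of the deposited value is removed. This matters for the pair, since Tcf21 was deposited as whole unscaled numbers in every cell, while Wt1 was deposited after multiplication by factors of 0.66 to 2.02 in the cells that hold it. Deposited values of the 2 genes are thus on different scales, and neither scale is corrected for gene length, so no level of Wt1 is set against a level of Tcf21.

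In the 20 stromal cells with Wt1 the recovered reads ran from 6 (cell S11) through a median of 228.5 to 2795 (cell S85). The middle of the distribution was narrow, with 15 of the 20 cells between 100 and 1000 reads and quartiles at 128 and 544.25, and the top was long. The 3 cells above 1000 reads, S15 with 1562, S29 with 1982 and S85 with 2795, together held 58.6% of the 10823 Wt1 reads. On the log2(deposited value + 1) scale the level was 8.03 ± 1.90 (SD over 20 cells). Scaled to a total of 1000000 recovered reads in each cell (RPM), Wt1 ran from 1.74 to 1005 RPM with a median of 83.1.

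In the 7 stromal cells with Tcf21 the recovered reads were 72 in S5, 168 in S26, 175 in S90, 206 in S77, 309 in S68, 809 in S25 and 1110 in S54. No cell lay below 10 reads, and the 2 highest cells stood apart from the other 5 and held 67.4% of the 2849 Tcf21 reads. The level was 8.11 ± 1.37 on the log2(deposited value + 1) scale (SD over 7 cells) and 32.1 to 509 RPM, with a median of 88.6.

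Detection of either gene was in most cells far from the limit of 1 read. With a minimum of 10 reads, Wt1 was kept in 19 stromal cells (32.8%) and Tcf21 in 7. With a minimum of 100 reads, Wt1 was kept in 18 (31%) and Tcf21 in 6 (10.3%). For each gene, most stromal cells thus had either 100 or more reads or none, with few between, as the plot of reads by cell shows. Whether the cells with none lacked the transcript or held it undetected was not tested.

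**Figure D1:**
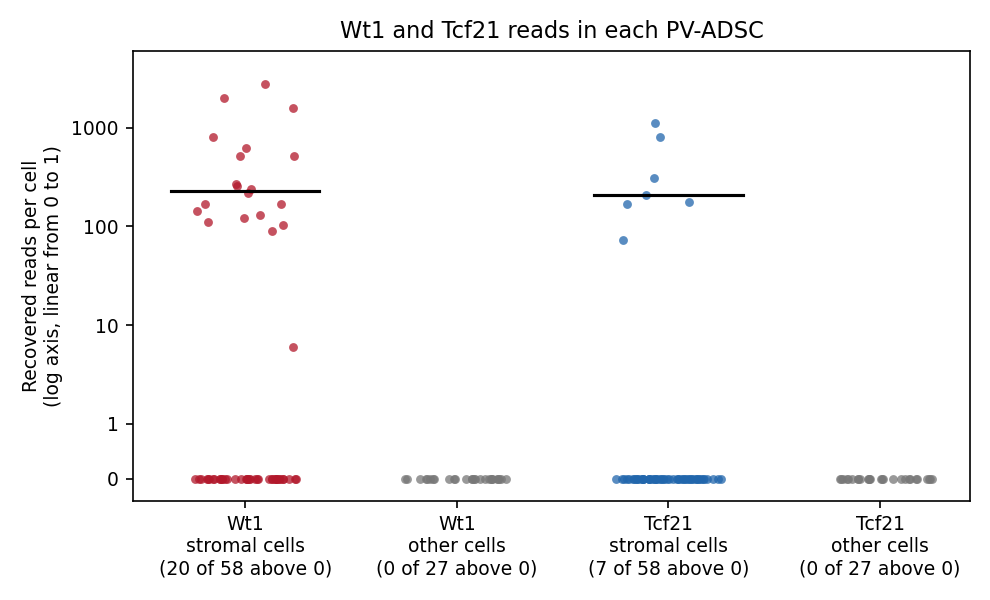
Recovered reads per cell (vertical axis, log scale that is linear from 0 to 1) of Wt1 and Tcf21 in the 58 stromal and 27 other cells. Each point is 1 cell, shifted sideways at random for visibility, and the bar is the median over the cells above 0. Wt1 was above 0 in 20 and Tcf21 in 7 stromal cells, most of them above 100 reads, and all 27 other cells were at 0 for both.

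The next question was whether the 2 factors were found in the same cells. Both were detected in 2 of 58 stromal cells (3.45%, interval 0.420% to 11.9%), Wt1 alone in 18, Tcf21 alone in 5 and neither in 33. At least 1 of the 2 genes was found in 25 cells (43.1%). The product of the 2 shares amounts to 2.41 cells with both, close to the 2 observed. Wt1 was found in 2 of the 7 cells with Tcf21 (28.6%, interval 3.67% to 71%) and in 18 of the 51 without it (35.3%, interval 22.4% to 49.9%). Tcf21 was found in 2 of the 20 cells with Wt1 (10%, interval 1.23% to 31.7%) and in 5 of the 38 without (13.2%, interval 4.41% to 28.1%). These intervals overlap widely, so that with 7 cells holding Tcf21 neither a joint nor a separate occurrence of the 2 genes could be detected.

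The 2 cells with both genes were S25, with 90 Wt1 and 809 Tcf21 reads, and S54, with 167 Wt1 and 1110 Tcf21 reads. They were the 2 highest cells for Tcf21 and lay below the median of the Wt1 cells. With a minimum of 100 reads for each gene, 1 cell (S54) was left with both. Over the 58 cells the Spearman rank correlation of the 2 genes was -0.074. This is a description of cells of 1 sample in which most values are 0.

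**Figure D2:**
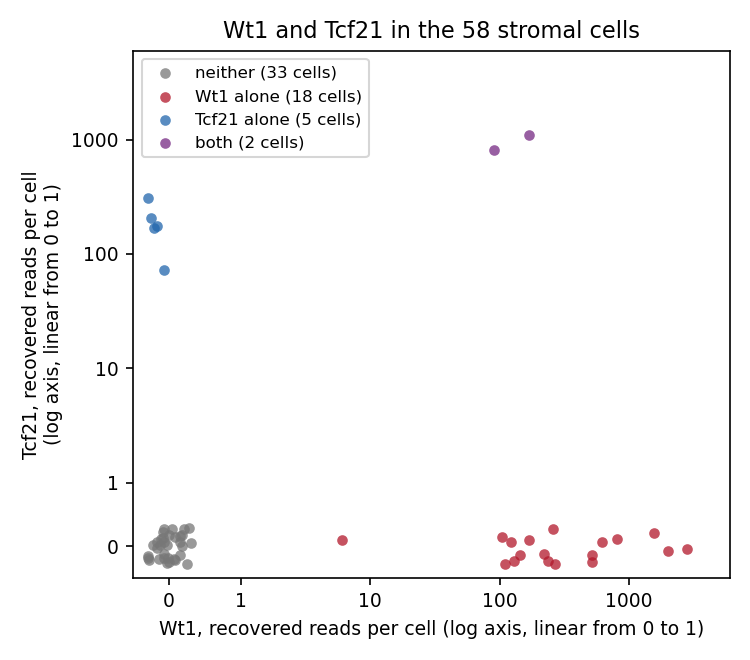
Recovered reads of Wt1 (horizontal) and Tcf21 (vertical) in each of the 58 stromal cells, on log axes that are linear from 0 to 1, with points at 0 shifted at random. Most cells lie on 1 of the axes or at the origin, and 2 cells, S25 and S54, hold both genes.

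Cells with and without each factor had similar depth. Total reads had a median of 2853340 in the 20 cells with Wt1 and 3100376 in the 38 without, and the median number of detected genes was 2938 and 2776.5. For Tcf21 the median total was 3079578 in the 7 cells with it and 2937950 in the 51 without, and the median number of genes was 3076 and 2812. Dcn, which chose the cells, had a median of 111735 reads with Wt1 and 92802 without, and of 121411 with Tcf21 and 94437 without. Ranges overlapped in each of these comparisons.

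The label stromal was then checked against 11 other stromal genes, among them the collagens Col1a1, Col1a2 and Col3a1, the growth factor receptor Pdgfra and the matrix genes Lum and Dpt. At least 4 of the 11 had 100 or more reads in 57 of the 58 stromal cells and in 0 of the 27 other cells. All 20 cells with Wt1 held 5 to 11 of them and all 7 cells with Tcf21 held 6 to 11. In the other cells, 24 of 27 held at least 3 of 15 endothelial markers at 100 reads although the sort was set against CD144, and 1 stromal cell (S34, with 6 of 15) did so too. Cdh5 itself was above 0 in 23 of 27 other and 7 of 58 stromal cells. S34 held neither Wt1 nor Tcf21.

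The exception among the stromal cells was S50. Its deposited Dcn value of 6521 was the lowest inside the limit, but it came from 69 reads multiplied by 94.5, the largest factor of the Dcn group of genes, and the cell held 0 of the 11 other stromal markers at 100 reads. The next cells inside were S61 at 11185, S68 at 23960 and S49 at 26786, and the nearest outside were S20 at 269.0, S48 at 239.2 and S58 at 88.2. S50 held neither Wt1 nor Tcf21. With stromal cells taken as those with 1000 or more recovered Dcn reads, 57 cells remained and Wt1 was found in 35.1% and Tcf21 in 12.3% of them.

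**Figure D3:**
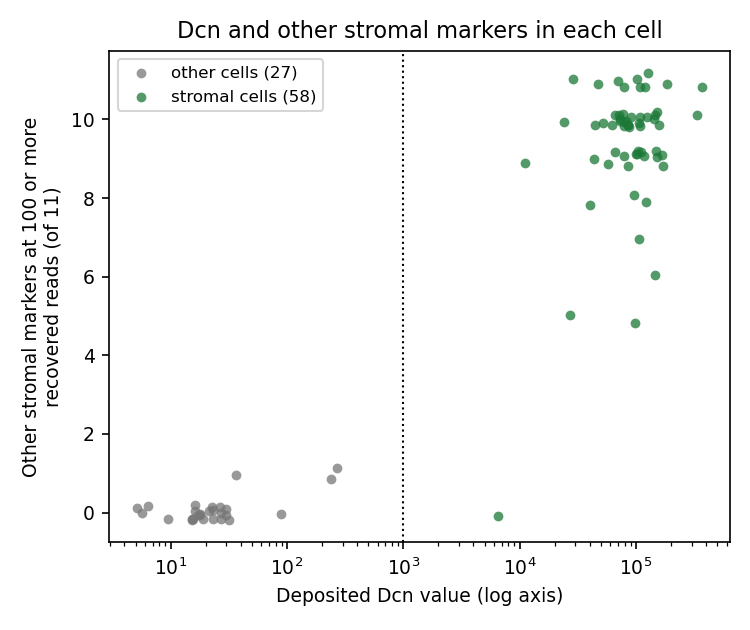
Deposited Dcn value (horizontal, log axis) and number of the 11 other stromal markers with 100 or more recovered reads (vertical, shifted at random) in each of the 85 cells. The dotted line is the limit of 1000. The 58 stromal cells lie to its right and, except S50 with 0 markers, hold 4 or more.

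Since mesothelium is a known site of Wt1, 9 mesothelial genes with values were followed in the stromal cells. Msln encodes mesothelin, Upk3b and Upk1b encode uroplakins, Krt7, Krt8 and Krt19 encode keratins of epithelia, and Muc16 encodes a membrane mucin. Lrrn4 and Gpm6a encode membrane proteins. At least 4 of the 9 had 10 or more reads in 2 of the 20 cells with Wt1 and in 0 of the 65 cells without it. In the other 18 cells with Wt1 all 9 genes were at 0. Among the 38 stromal cells without Wt1, 3 had reads of any of them, namely 303 of Krt19 in S53, 3 of Gpm6a in S26 and 4 of Lrrn4 in S5, and the latter 2 cells held Tcf21. All 27 other cells were at 0.

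The 2 cells were S18 and S29. S18 had 6243 Upk3b, 8048 Upk1b, 2085 Krt19, 1921 Gpm6a and 623 Msln reads beside 258 of Wt1. S29 had 6130 Upk3b, 513 Upk1b, 1556 Krt19, 3562 Gpm6a, 2622 Msln and 2044 Krt8 reads beside 1982 of Wt1, the second highest Wt1 value of all cells. Summed over the 9 markers the cells had 19454 and 19392 reads. They also had the lowest sums of the 11 stromal markers among the cells with Wt1, at 17271 in S18 and 20373 in S29 against 44381 to 339270 in the other 18. Pdgfra and Dpt were at 0 in both, and Lum at 4 reads in each. Their Dcn reads, 122940 in S18 and 137722 in S29, were within the range of the other stromal cells, and Col3a1 was present at 8711 and 7392 reads.

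Most of the Wt1 signal did not lie in these 2 cells. Without S18 and S29, Wt1 was found in 18 of 56 stromal cells (32.1%, interval 20.3% to 46%), with a median of 193.5 reads and a level of 7.85 ± 1.87 (SD over 18 cells). Tcf21 was at 0 in both cells.

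**Figure D4:**
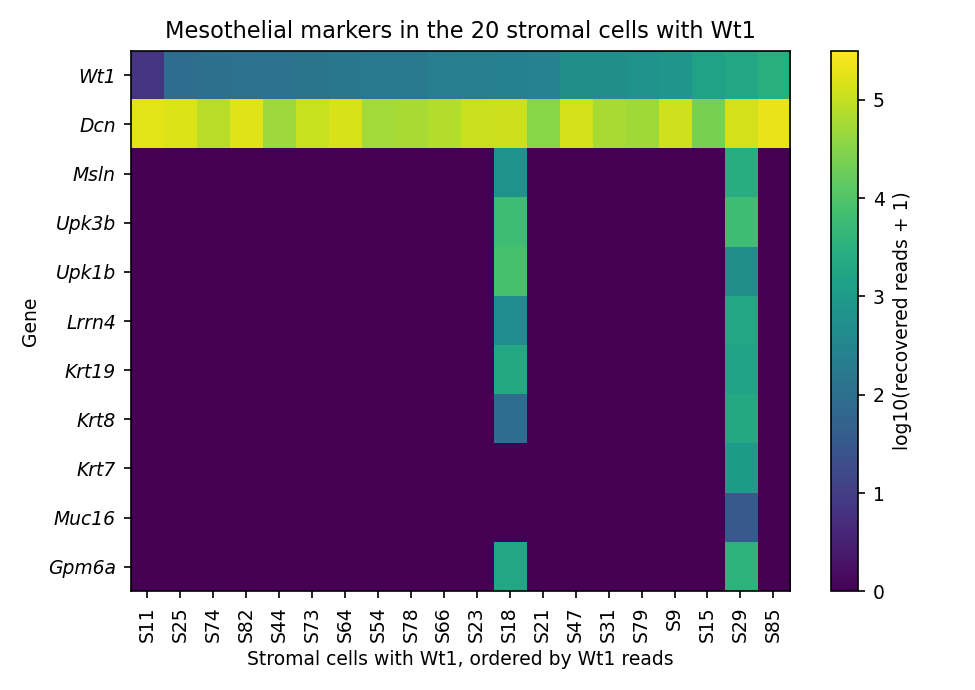
Recovered reads, as log10(reads + 1) in colour, of Wt1, Dcn and 9 mesothelial markers (rows) in the 20 stromal cells with Wt1 (columns, in order of Wt1 reads). The markers are above 0 in S18 and S29 and at 0 in the other 18 cells.

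Other cell types were traced by markers as well. Mural cell markers (7 with values, those of contractile smooth muscle not analysed here) reached 100 reads for at least 1 marker in 4 of 20 cells with Wt1, 0 of 7 with Tcf21, 12 of 58 stromal and 5 of 27 other cells. For immune markers (3 with values) the counts were 4 of 20, 1 of 7, 8 of 58 and 0 of 27. The Schwann cell marker S100b reached it in 2 cells with Wt1 and 0 with Tcf21, and the adipocyte hormone gene Adipoq in none of either. No cell reached more than 1 mural or immune marker at 100 reads.

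Lists of genes around the 2 factors were compared between stromal cells with and without each factor, as the share of cells in which a gene was above 0. Of the 115 list genes with a value, 56 were above 0 in at least 10 stromal cells. A gene is called different here when its share differed by at least 20 percentage points, which is a size and not a test. One cell is worth 5 points among the 20 cells with Wt1 and 14.3 points among the 7 with Tcf21. The comparison by Wt1 and the one by Tcf21 draw on the same 58 cells and share the 33 cells with neither.

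By Wt1, 0 of the 56 list genes were at least 20 points higher and 5 (8.93%) at least 20 points lower in the cells with it, against 6.58% and 3.44% of all 5381 genes that pass the same limit. The median difference was -0.79 points over the list genes and 2.37 over all genes. Without the 2 cells with mesothelial markers, 2 list genes (3.57%) were higher with Wt1 and 3 (5.36%) lower. The shares over all 5242 genes were then 8.28% and 3.91%. By Tcf21, 9 of 56 (16.1%) were higher and 3 (5.36%) lower, against 10.8% and 12.3% of all 5382 genes. The medians were 3.64 points over the list genes and -1.68 over all genes.

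Among partners of bHLH factors (6 of 7 pass the limit), Id2, an inhibitor of E proteins, was detected in 6 of 7 cells with Tcf21 and 20 of 51 without, a difference of 46.5 points. Its relative Id1 was found in 4 of 7 and 15 of 51 (27.7 points), and Id3 in 7 of 7 and 41 of 51 (19.6 points). Id4 went the other way, in 1 of 7 and 11 of 51 (-7.28 points). The E protein gene Tcf12 was found in 3 of 7 and 12 of 51 (19.3 points), and Tcf4 in 5 of 7 and 34 of 51. The median over the 6 genes was 19.5 points, with 2 called higher and 0 lower. Without the 2 cells with mesothelial markers described above, Tcf12 differed by 20.4 points and 3 were called higher. By Wt1 the same list had a median of -3.82, and Id2 was the 1 member called, in 6 of 20 cells with Wt1 and 20 of 38 without (-22.6 points). Tcf3 was above 0 in 5 stromal cells and did not pass the limit.

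Among mesenchymal transcription factors (9 of 17 pass), 3 were called lower and 0 higher with Wt1, and the median was -2.89 points. Prrx1, a homeobox factor of limb and connective tissue mesenchyme, was found in 11 of 20 cells with Wt1 and 31 of 38 without (-26.6 points). Ebf1, a factor of adipocyte and B cell development, was found in 12 of 20 and 32 of 38 (-24.2 points), and the orphan nuclear receptor Nr2f2 in 1 of 20 and 11 of 38 (-23.9 points). By Tcf21, Ebf1 was found in 7 of 7 and 37 of 51 (27.5 points) and Ebf2, a factor of brown fat precursors, in 6 of 7 and 28 of 51 (30.8 points), and none was called lower. The median was 7.0 points. The 2 cells with mesothelial markers bear on this list: without them Prrx1 differed by -20.5 points by Wt1, Ebf1 by -17.5 and Nr2f2 by -23.4, and Id2 of the bHLH list by -19.3, so that 2 of the 4 genes no longer reached 20 points.

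Of the epicardial and coelomic genes, 3 of 11 passed the limit and 0 were called by either factor. Gata6, a zinc finger factor of the heart and visceral mesoderm, was found in 8 of 20 cells with Wt1 and 10 of 38 without (13.7 points). The semaphorin gene Sema3d was found in 11 and 14 (18.2 points), and the odd-skipped factor Osr1 in 7 and 16 (-7.11 points). By Tcf21 the median of the 3 was -2.80 points. By Wt1 the median was 13.7 points, and it fell to 7.02 points without the 2 cells with mesothelial markers, with 0 called. Tbx18, a T-box factor that marks the epicardium along with Wt1 and Tcf21, was above 0 in 2 stromal cells, neither of which held Wt1 or Tcf21. Aldh1a2, which makes retinoic acid in the epicardium, was above 0 in 4 stromal cells, 2 of them with Wt1 and 0 with Tcf21.

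Of the genes that handle retinoids, 5 of 13 passed. Aldh1a3, another enzyme that makes retinoic acid, was found in 4 of 7 cells with Tcf21 and 8 of 51 without (41.5 points), and in 1 of 20 with Wt1 and 11 of 38 without (-23.9 points). The 1 cell with Wt1 and Aldh1a3 was a cell with both factors. The retinol carrier gene Rbp4 was found in 7 of 20 and 6 of 38, a difference of 19.2 points by Wt1, and was not called. Without the 2 cells with mesothelial markers Rbp4 differed by 23.1 points, and without S50 by 21.5 points.

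Of the cofactors and known targets of WT1, 4 of 17 passed and 0 were called by Wt1, with a median of 5.26 points. The growth factor receptor gene Igf1r was found in 11 of 20 cells with Wt1 and 14 of 38 without (18.2 points), but in 0 of 7 cells with Tcf21 and 25 of 51 without, the largest difference among the list genes by Tcf21 at -49.0 points. Nphs1, which encodes the podocyte protein nephrin, was found in 3 of 7 and 8 of 51 (27.2 points), but it had under 100 reads in every one of these cells. Podxl, another podocyte gene, was above 0 in 3 stromal cells, all 3 with Wt1, and in 9 of the 27 other cells.

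Among genes that mark states of adipose progenitors (12 of 14 pass), 0 were called by Wt1 and the median was 1.97 points. By Tcf21, Cd55, a marker of early progenitors that encodes a complement regulator, was found in 5 of 7 and 15 of 51 (42 points). By Wt1 it was found in 9 of 20 and 11 of 38 (16.1 points), and it differed by 21.1 points without the 2 cells with mesothelial markers. The tissue factor gene F3 was found in 1 of 7 and 22 of 51 (-28.9 points), and Clec11a, which encodes a secreted growth factor, in 0 of 7 and 11 of 51 (-21.6 points). Dpp4 and Pi16, which mark early progenitors in fat, were not called by either factor. Dpp4 was found in 4 of 7 cells with Tcf21 and 21 of 51 without. Its counts by Wt1 were 8 of 20 and 17 of 38. Pi16 was found in 5 of 7 and 40 of 51 by Tcf21, and in 16 of 20 and 29 of 38 by Wt1. The differences of Dpp4 by Wt1 and of Pi16 by either factor were smaller than the worth of 1 cell with the factor. That of Dpp4 by Tcf21 was little more than the worth of 1 cell. No contrast between the factors is drawn from these directions.

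The stromal markers themselves differed little. All 11 passed and 0 were called by either factor, with medians of 0 points by Wt1 and 1.4 by Tcf21. Of the endothelial markers, 5 of 15 passed. Flt1 was found in 3 of 7 cells with Tcf21 and 7 of 51 without (29.1 points) and Pecam1 in 3 of 7 and 11 of 51 (21.3 points). Tek differed by 10.9 points, which was also the median of the 5 by Tcf21. Cldn5 (1 of 7 and 11 of 51, -7.28 points) and Eng (1 of 7 and 12 of 51, -9.24 points) went the other way. By Wt1, 0 were called and the median was -3.42 points. Beside these counts, the summed reads of the 15 endothelial markers were 5 to 2259 in the 7 cells with Tcf21 (median 45). In the 51 stromal cells without Tcf21 they were 0 to 16268 (median 8), with the highest value in S50. In the 27 other cells they were 0 to 43725 (median 24372). Flt1 reached 100 reads in 2 of the 58 stromal cells and Pecam1 in 1, and the part of endothelial RNA in the difference was not tested.

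**Figure D5:**
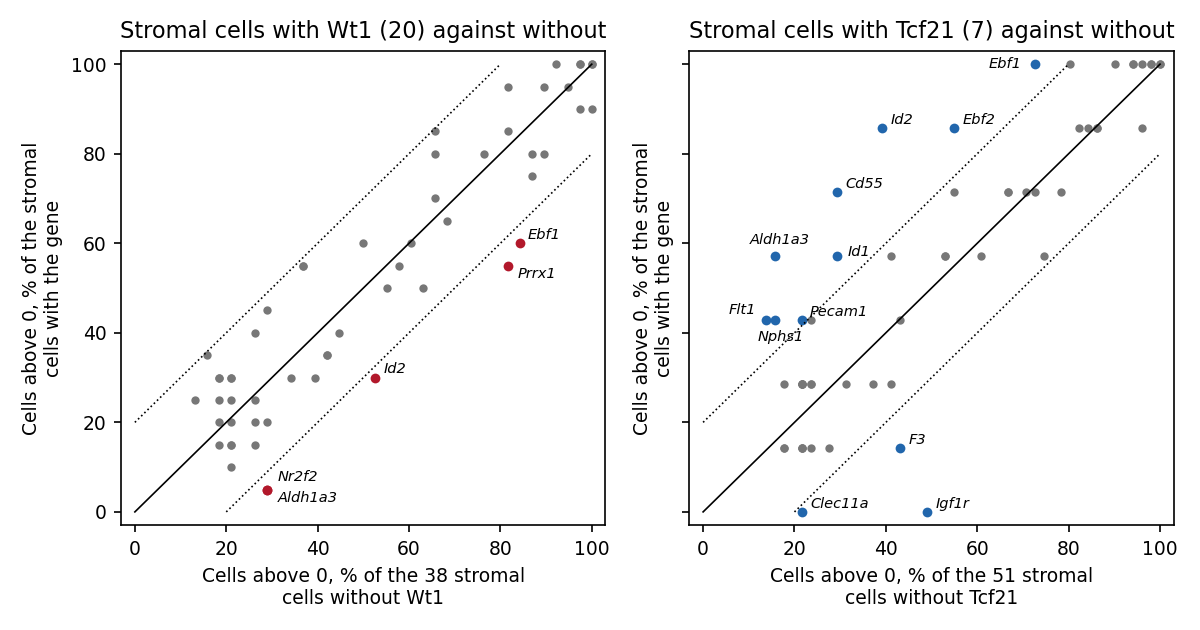
Share of stromal cells above 0 for each of the 56 list genes, in cells without the factor (horizontal, %) and with it (vertical, %), split by Wt1 (left, 20 against 38 cells) and by Tcf21 (right, 7 against 51 cells). The solid line marks equal shares, the dotted lines 20 points of difference, and coloured points with names lie outside them, 5 by Wt1 and 12 by Tcf21.

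The genes whose deposited values ranked most like the 2 factors over the 58 stromal cells were sought among those above 0 in at least 10 stromal cells. The 5 most like Wt1 of 5382 were Rnf7 (Spearman rho 0.50), which encodes a RING subunit of ubiquitin ligases, the pseudogene Cbx3-ps6 (0.44), Ctr9 (0.43), a subunit of the PAF1 transcription complex, Dstn (0.43), an actin depolymerizing factor, and Gadd45b (0.43), a stress-induced gene. Rnf7 was found in 9 of 20 cells with Wt1 and 3 of 38 without, and Gadd45b in 16 and 15. The value of Cbx3-ps6 is uncertain, because a pseudogene can share reads with its parent gene. The 5 most like Tcf21 of 5383 were Fundc2 (0.49), which encodes a mitochondrial protein, Adamts5 (0.43), a protease that cleaves the proteoglycan aggrecan, Scaf11 (0.43), a splicing factor, Tcp11l2 (0.43) and Pikfyve (0.41), a lipid kinase. Adamts5 was found in 7 of 7 cells with Tcf21 and 36 of 51 without. These are the top ranks among all genes that pass the limit, in cells of 1 sample, with most values of both factors tied at 0.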

How the data were processed

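Cells were sorted from peri-aorta adipose tissue and each was sequenced as 1 library. Per the labels and the study's methods, the authors aligned reads to mm9 with HISAT2 (2.0.5), used SAMtools (1.4) and StringTie (1.3.3), kept cells with enough aligned reads and scaled counts with scater. The counting program and annotation are not given in the sources used here. The authors deposited normalized read counts, a signal of 85 cells by 16069 genes.

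In the values, 10665 genes were whole numbers in every cell (relative tolerance 6e-09, absolute 1e-06). The other 5404 genes formed 13 groups, each multiplied by 1 factor per cell. These groups held 144272 values above 0, of which 10 values of 1 cell had no factor and were only rounded. Removing the factor from the rest gave whole reads, and 0 were not whole multiples (relative tolerance 3e-09, value rounding 1e-09). Recovered totals ran from 1149550 to 4776510 (median 2847986). The step was devised after the values were seen and tested on simulated data. Python 3.11.15, numpy 2.4.6, pandas 2.3.3 and scipy 1.17.1 were used.

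A gene counts as detected above 0. Shares have exact intervals. No test was run, since no animal is named, and no doublet caller was run. The chemistry does not mark strand, so reads of Wt1 and of its antisense partner Wt1os (not analysed here) cannot be told apart where they overlap. Named genes were Wt1, Tcf21, Dcn, up to 5 members farthest apart per list and direction, and the 5 genes most like each factor; Tbx18, Aldh1a2, Tcf3, Podxl, Dpp4, Pi16 and the members of the mesothelial and other marker lists were named after their values were seen. Members and lists were chosen with earlier results of these data known.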

Additional observations from a re-analysis of the deposited data

How the results depend on the processing

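No paired analysis was possible because all cells form 1 group and no result comes from a test. Of 67 alternative values for the shares, levels, co-detection and list counts, 63 stayed within the interval, SD or 1.5 times of the value reported, 4 moved and 0 reversed. The share of stromal cells with Wt1 stayed between 31% and 35.1% and that with Tcf21 between 10.3% and 12.5%, and both stayed at 0 in other cells, under other Dcn limits, read minimums of 10 and 100, stromal cells chosen by 11 markers, thinning, and removal of S34, S50 or the 2 cells with mesothelial markers (the last 2 removals chosen after seeing the data). Thinning and read minimums cannot raise a share and so do not bear on the cells at 0, among them all other cells. A Dcn limit of 10000, at least 4 of 11 stromal markers, and 1000 recovered Dcn reads each left the same 57 stromal cells, without S50. These settings thus repeat 1 check, and S50 held neither gene, so the levels could not move with it. The minimum of 10 reads could not move Tcf21, whose lowest cell had 72. The count of 63 includes such fixed or repeated values. With a minimum of 100 reads, 1 cell held both genes in place of 2. As log2(RPM + 1), where RPM is reads scaled to 1000000 per cell, the level of Tcf21 was 6.63, a change of unit. With 30 points in place of 20, 0 list genes were called by Wt1 (5 at 20 points) and 5 by Tcf21 (12 at 20 points). The share of all genes at 30 points is not given here, so these counts cannot be set against it. The list counts by Tcf21 rest on 7 cells, the cells come from an unknown number of mice, and no share covers the spread between animals.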
